A study of Homo sapiens with 7 samples.

Results

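Mediator is the large complex that relays signals from DNA-bound transcription factors to RNA polymerase II at gene promoters. Its core is built from a head and a middle module, which touch the polymerase, a tail that receives the activators, and a backbone subunit that holds these together. A separable kinase module, made of a cyclin-dependent kinase, cyclin C, MED12 and MED13, docks on the core, where it can block contact with the polymerase and phosphorylate transcription factors. The genes described here are the 32 genes of this complex in human cells, among 18017 genes with a value on the array. They were taken by name and matched by the gene identifier that opens each probe set's name. Of the 32, 7 encode head subunits, 9 middle subunits, 1 the backbone (MED14), 9 tail subunits and 6 the kinase module, where CDK8 and CDK19, and likewise MED13 and MED13L, are pairs of paralogs that can stand in for each other. MED27 to MED30 were counted with the tail, although older work placed some of them in the head.

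The cells were HCT116, an established human colon carcinoma line, and RNA was measured on the ExonHit Human Splice Array, where many short probe sets cover each gene. Cells exposed to 10 µM camptothecin (CPT), a compound that traps topoisomerase I on DNA, for 15 or 20 h form the CPT late group (n = 2). Exposures to the same dose for 1, 2 or 4 h form the CPT early group (n = 3). The DMSO group (n = 2) is cells kept in the solvent, 0.1% DMSO, for 4 or for 20 h. No time was repeated and nothing in the labels says that arrays came from separate cultures, so the spread within a group, and every p-value, mixes time with technical error.

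All values are log2 values normalised between arrays, with array medians from 2.87 to 2.96 over 2108940 probe sets. The members hold 4064 of these, of which 2449 had a mean above 2.95 over the 7 arrays and were kept. Every member kept at least 7, so all 32 passed the filter, and a gene's value is taken as their median. The late arrays stand apart: over all probe sets they correlated with the other arrays at 0.845 to 0.908, the others with one another at 0.942 to 0.956, and the 15 h array with the 20 h array at 0.941. CDKN1A, the cell cycle inhibitor induced by p53, averaged 7.20 ± 0.17 in CPT late and 5.47 ± 0.28 in DMSO (SD, n = 2 each), and TOP1, which encodes topoisomerase I, 7.20 ± 0.38 in CPT late and 7.84 ± 0.08 in DMSO. EPCAM, a defining epithelial marker, averaged 7.65 ± 0.12 in CPT late and 7.94 ± 0.09 in DMSO, and KRT8 8.03 ± 0.14 in CPT late and 7.39 ± 0.33 in DMSO.

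After 15 to 20 h of CPT some Mediator genes were lower and others higher, and the head, middle and tail modules each held both. With limma and Benjamini-Hochberg adjustment over all genes, 15 of the 32 were lower than in DMSO (46.9%), against a background of 17.5% of all genes. Higher were 7 (21.9%), below the 33.5% of all genes that were higher. The remaining 10 did not pass the threshold of 0.05. The median log2 difference of the members was −0.28, against 0.34 for all genes, and they ranged from −3.04 for CDK8 to 1.41 for MED18. The arrays of CPT late and DMSO did not overlap for 17 members that were lower and 10 that were higher, against a background of 23.8% and 54.6% of genes. Because the median of all genes was shifted upward, each array was also centred on its gene median: the lower members then numbered 15 and the higher 2, with a member median of −0.52. With the same centring 3725 of all genes were lower and 2191 higher, against 3150 and 6027 without it, and their median was 0.10. In bulk RNA such as this, fewer cells that express a gene and less of its RNA per cell cannot be told apart.

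**Figure D1:**
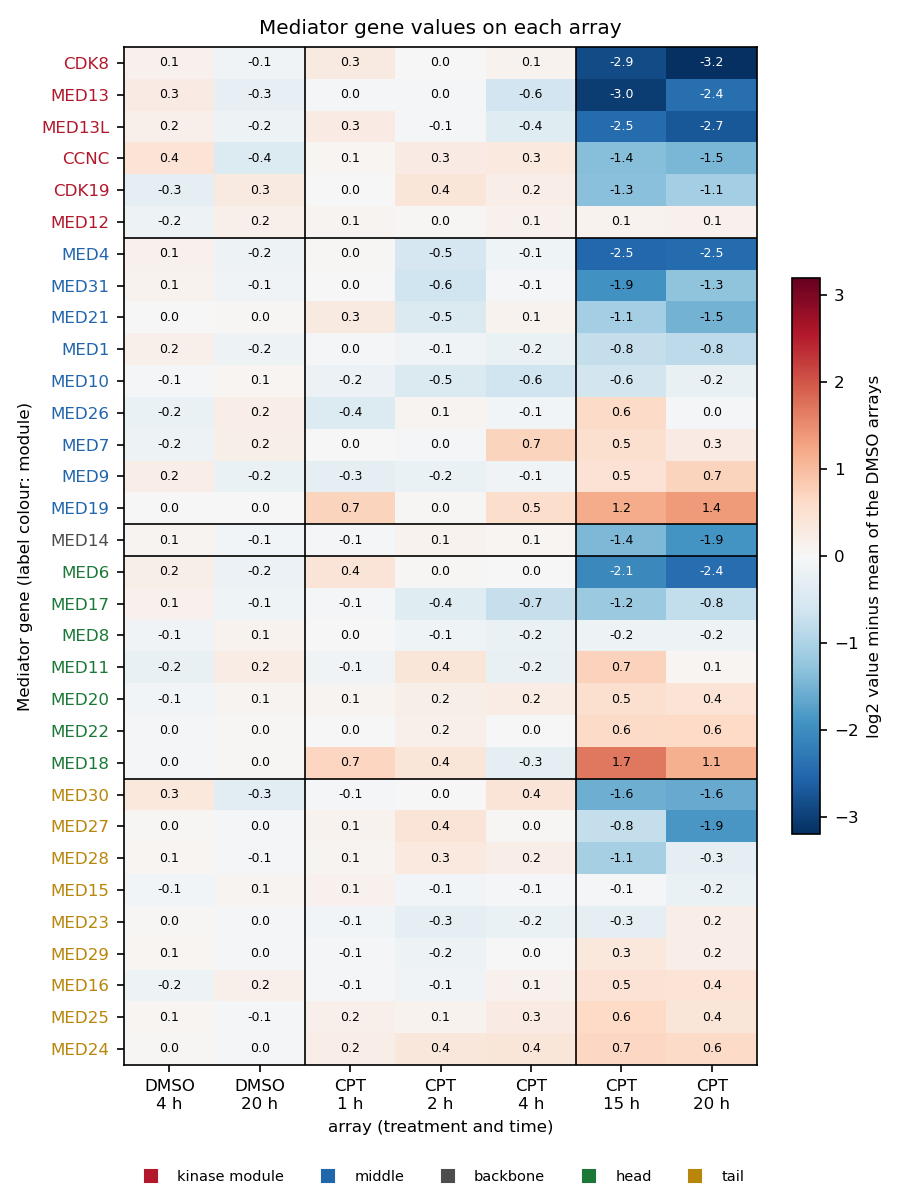
Log2 value of each of the 32 Mediator genes on each of the 7 arrays, minus that gene's mean over the DMSO arrays, grouped by module and ordered by the late change. The blue cells lie mostly in the 15 and 20 h CPT columns, with CDK8 the darkest at 20 h, while the 1, 2 and 4 h columns stay pale.

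The kinase module held the 3 largest decreases of the complex. Of its 6 genes 5 fell in CPT late and 0 rose, against 17.5% and 33.5% of all genes, with a module median of −2.0. CDK8, the kinase itself, read 2.58 at 15 h and 2.21 at 20 h of CPT, against 5.56 and 5.31 in DMSO at 4 and 20 h. That is a mean of 2.39 ± 0.27 in CPT late and 5.43 ± 0.18 in DMSO (SD, n = 2 each), a log2 difference of −3.04 ± 0.20 (SE; 95% interval −3.49 to −2.59), or 8.22-fold lower (adjusted p = 2.17e-05). Both late values lie under the 2.95 used to keep a probe set, and so in the dim range of the array. MED13, which tethers the kinase module to the core, read 3.66 and 4.28 at 15 and 20 h of CPT, against 6.95 and 6.44 in DMSO, a 6.63-fold decrease (−2.73 ± 0.30 SE, adjusted p = 0.000116). Its paralog MED13L read 3.84 and 3.58 in CPT late, against 6.46 and 6.15 in DMSO, and fell 6.05-fold (−2.60 ± 0.25, adjusted p = 7.05e-05). The 95% intervals of the paralogs overlap, at −3.38 to −2.07 for MED13 and −3.16 to −2.04 for MED13L, and the difference between them was not tested.

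CDK19, the second kinase of the module, read 3.18 and 3.42 at 15 and 20 h of CPT, against 4.22 and 4.80 in DMSO, and fell 2.31-fold (−1.21 ± 0.23 SE, adjusted p = 0.00245). The interval of its change, −1.71 to −0.71, lies apart from that of CDK8, but the difference between the paralogs was not tested. With the stricter filter on dim probe sets CDK19 read −0.63 and no longer passed (adjusted p = 0.0589). CCNC, which encodes the cyclin that activates both kinases, read 4.99 and 4.90 in CPT late, against 6.78 and 5.93 in DMSO, a 2.66-fold decrease (−1.41 ± 0.27, adjusted p = 0.003). The DMSO arrays of CCNC differed by 0.85 between 20 and 4 h, the widest gap between DMSO arrays among the members, and its late values still lay below both. MED12, which activates the kinase through cyclin C, was the exception: it read 4.61 and 4.64 in CPT late, between the 4.33 and 4.67 of the DMSO arrays, a difference of 0.13 (95% interval −0.27 to 0.52, adjusted p = 0.557). MED12 was also the gene with the most kept probe sets, 228, so this value rests on more probe sets than any other member's.

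**Figure D2:**
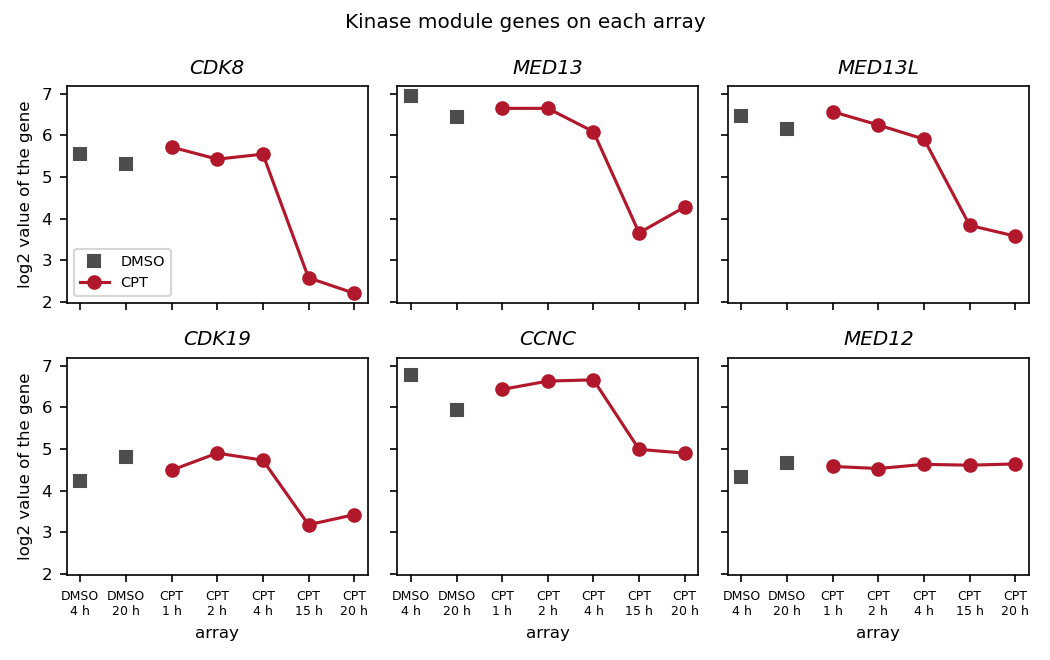
Log2 values of the 6 kinase module genes on each array, with DMSO as grey squares and CPT as red circles joined in order of time. CDK8, MED13, MED13L, CDK19 and CCNC lie below their DMSO values at 15 and 20 h, and the MED12 values lie between 4.33 and 4.67 on all arrays.

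Promoter sequences are shown for the member with the largest decrease, for the longest member (which also fell), for the kinase module gene that did not pass and for a member that rose. Each is the 250 bases before the gene's start in RefSeq's table of build GRCh38.p14, 5′ to 3′ on the gene's strand, and capitals mark matches on either strand to any of 3 motifs. The GC box, a site for SP1 and related factors, was searched as GGGCGG. The box bound by the factor NF-Y was searched as CCAAT on both strands. For factors of the ETS family the letters searched were CCGGAAG, with no mismatch allowed.
CDK8, chr13:26253879-26254128, plus strand: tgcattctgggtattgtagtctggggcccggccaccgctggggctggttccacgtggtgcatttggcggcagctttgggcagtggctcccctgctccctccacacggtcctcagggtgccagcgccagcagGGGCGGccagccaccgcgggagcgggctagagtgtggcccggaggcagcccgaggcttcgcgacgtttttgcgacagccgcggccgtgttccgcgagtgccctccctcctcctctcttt
MED13L, chr12:116277694-116277943, minus strand: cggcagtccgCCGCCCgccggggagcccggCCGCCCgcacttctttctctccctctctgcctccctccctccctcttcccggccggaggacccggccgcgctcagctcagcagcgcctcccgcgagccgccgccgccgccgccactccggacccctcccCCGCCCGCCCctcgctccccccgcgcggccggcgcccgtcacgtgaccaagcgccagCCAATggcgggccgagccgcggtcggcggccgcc
MED12, chrX:71118346-71118595, plus strand: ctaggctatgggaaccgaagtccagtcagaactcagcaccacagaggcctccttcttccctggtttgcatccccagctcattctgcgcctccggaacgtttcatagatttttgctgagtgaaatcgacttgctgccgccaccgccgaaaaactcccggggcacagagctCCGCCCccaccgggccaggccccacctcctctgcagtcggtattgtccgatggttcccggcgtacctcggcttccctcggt
MED19, chr11:57712216-57712465, minus strand: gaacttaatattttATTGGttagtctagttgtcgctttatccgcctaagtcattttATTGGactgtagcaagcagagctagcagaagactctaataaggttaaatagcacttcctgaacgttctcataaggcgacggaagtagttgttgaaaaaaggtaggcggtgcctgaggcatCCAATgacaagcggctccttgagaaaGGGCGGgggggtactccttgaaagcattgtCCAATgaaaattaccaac
The CDK8 promoter held 1 GC box, that of MED13L 4 GC boxes with overlapping letters and 1 CCAAT box, and that of MED12 1 GC box. The MED19 promoter held 1 GC box and 4 CCAAT boxes. Promoters were at hand for 24 members, of which 9 were lower in CPT late. A GC box was found in 62.5% of these 24, against 42.6% of 35116 promoters of the same length, and in 4 of the 9 lower members and 11 of the other 15. For each member 1 promoter was read. The 35116 may hold more than 1 for a gene and were not limited to genes on the array, so the shares come from unlike sets. A CCAAT box was found in 37.5% of members and 32% of all promoters, an ETS motif in 20.8% and 8.52%, and a TATA box (TATAAA) in 8.33% and 10.7%. Of the 9 lower members 4 held a CCAAT box, 2 an ETS motif and 0 a TATA box, and of the other 15 these were 5, 3 and 2. The letters TGACG, found in the cyclic AMP response element, lay in 5 of the 9 lower members and 4 of the other 15, against 21.2% of all promoters. Also searched were GCGCATGC (NRF1), AAGATGGCG (YY1) and TTTGAA (CHR). They lay in 4.17%, 8.33% and 12.5% of members, against 2.63%, 0.652% and 13.3% of all promoters. Lower members held them in 0, 0 and 2 cases, and the other members in 1, 2 and 1. No motif was tested for a difference between lower and other members. The median GC content was 52.8% in promoters of lower members, 58% in those of the other members and 58% in all promoters. A match describes letters only.

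The middle module held changes in both directions. Of its 9 genes 4 fell and 2 rose (44.4% and 22.2%), against 17.5% and 33.5% of all genes, with a module median of −0.40. MED4, a core middle subunit, read 4.64 and 4.68 at 15 and 20 h of CPT, against 7.30 and 7.0 in DMSO. This 5.63-fold decrease (−2.49 ± 0.24 SE, adjusted p = 6.73e-05) was the largest outside the kinase module. MED31, a small conserved middle subunit, read 5.33 and 5.98 in CPT late, against 7.38 and 7.16 in DMSO, 3.05-fold lower (−1.61 ± 0.29, adjusted p = 0.002), but it rests on 11 kept probe sets and reads 0.48 (adjusted p = 0.368) when the dim ones are not removed. MED21, which pairs with MED7 in the hinge of the middle module, read 5.15 and 4.74, against 6.22 and 6.27 in DMSO, 2.46-fold lower (−1.30 ± 0.28, adjusted p = 0.00472). When its value was taken only over the probe sets lettered B, F and T, an alternative added after the data were seen, MED21 read −0.60 and did not pass (adjusted p = 0.0767). Its partner MED7 averaged 4.39 ± 0.17 in CPT late and 4.00 ± 0.25 in DMSO (SD, n = 2 each), and its difference of 0.39 did not pass (adjusted p = 0.221).

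MED1, the subunit that binds nuclear receptors, fell 1.74-fold, with 4.12 and 4.04 in CPT late, against 5.05 and 4.71 in DMSO (adjusted p = 0.00681). MED19, which lies close to the polymerase, went the other way: it read 6.02 and 6.18 at 15 and 20 h, against 4.84 and 4.80 in DMSO, a 2.43-fold increase (1.28 ± 0.24 SE, adjusted p = 0.00273). MED9 read 4.55 and 4.79 in CPT late, against 4.29 and 3.88 in DMSO (0.59 ± 0.19, adjusted p = 0.0278), from 7 kept probe sets. The call for MED9 was lost when the 15 h array (0.70, adjusted p = 0.0507), the late array at 20 h (0.47, 0.151) or the DMSO array at 20 h (0.38, 0.136) was left out. After centring MED9 read 0.34 and did not pass (adjusted p = 0.211). MED10 (−0.40) and MED26 (0.28), the subunit that recruits elongation factors, did not pass. MED14, the backbone on which the modules are assembled, read 4.66 and 4.18 in CPT late, against 6.19 and 6.0 in DMSO. It fell 3.2-fold (−1.68 ± 0.22, adjusted p = 0.000356), a value that rests on 197 kept probe sets.

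Of the 7 head genes 2 fell and 3 rose (28.6% and 42.9%), against 17.5% and 33.5% of all genes. Head differences ran from −2.26 to 1.41. MED6, a head subunit conserved from yeast, read 4.30 and 3.93 at 15 and 20 h of CPT, against 6.57 and 6.18 in DMSO, 4.79-fold lower (−2.26 ± 0.24 SE, adjusted p = 0.000116). MED17, the scaffold of the head, read 4.89 and 5.29 in CPT late, against 6.20 and 5.94 in DMSO, 1.97-fold lower (−0.98 ± 0.26, adjusted p = 0.0127). That call was lost without the 15 h array (−0.78, adjusted p = 0.0789) and without the 4 h DMSO array (−0.85, 0.0836). MED18, a subunit at the tip of the head, read 6.89 and 6.36, against 5.18 and 5.25 in DMSO, and rose 2.66-fold (1.41 ± 0.32, adjusted p = 0.00656). MED18 was the largest increase in the complex.

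MED20, which forms a dimer with MED18, rose less: it read 4.30 and 4.22 in CPT late, against 3.70 and 3.87 in DMSO (0.47 ± 0.16 SE, adjusted p = 0.0333). MED22 read 4.98 and 5.02, against 4.35 and 4.4 in DMSO (0.62 ± 0.17, adjusted p = 0.0132). The median of all genes was shifted upward by 0.34, and after centring neither increase passed (0.23, adjusted p = 0.224 for MED20, and 0.38, 0.0911 for MED22). With no filter on dim probe sets neither passed (0.36, adjusted p = 0.0717 for MED20, and 0, 0.983 for MED22). MED20 was also lost without the 15 h array (0.43, adjusted p = 0.137), the 20 h CPT array (0.51, 0.0897) or that of DMSO at 4 h (0.39, 0.133). MED22 was lost without the same arrays (0.64, 0.61 and 0.60, adjusted p = 0.0508, 0.0618 and 0.0545), and its value over the lettered subset above was −0.07. MED8 (−0.16, 95% interval −0.54 to 0.22) and MED11 (0.40, interval −0.24 to 1.03), the partner of MED22 in the head, did not pass.

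Of the 9 tail genes 3 were lower and 2 higher (33.3% and 22.2%), against 17.5% and 33.5% of all genes. The tail median was −0.04. MED30 read 3.15 and 3.10 at 15 and 20 h of CPT, against 5.04 and 4.37 in DMSO, 2.99-fold lower (−1.58 ± 0.24 SE, adjusted p = 0.000802). With no filter on dim probe sets MED30 read −0.64 and did not pass (adjusted p = 0.0796). MED27 read 4.07 and 2.98 in CPT late, against 4.87 and 4.80 in DMSO, 2.48-fold lower (−1.31 ± 0.30, adjusted p = 0.00682). Its late arrays differed by −1.09 between 20 and 15 h, the only difference past 2-fold between the late arrays among the members. With the 20 h late array left out MED27 read −0.77 (adjusted p = 0.0445), and with that of 15 h left out −1.86, within a range of adjusted p from 0.000764 to 0.0497 over the alternatives. MED28 read 4.88 and 5.64, against 6.01 and 5.87 in DMSO (−0.68 ± 0.26, adjusted p = 0.0483), and passed in 5 of 14 alternatives. Without the 15 h array MED28 read −0.30 (adjusted p = 0.345) and without that of 20 h −1.06 (0.0154), and leaving out any other array but the 20 h CPT array also ended the call, with −0.61 (0.183) and −0.75 (0.0848) without the 4 and 20 h DMSO arrays and −0.68 each (0.0614, 0.0617 and 0.0618) without the 1, 2 and 4 h CPT arrays. All 3 lower tail genes belong to the run MED27 to MED30.

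Among the other 6 tail genes 2 were higher, on arrays where 33.5% of all genes were higher. MED24, a partner of nuclear receptor activation, read 4.99 and 4.94 at 15 and 20 h of CPT, against 4.36 and 4.31 in DMSO (0.63 ± 0.17 SE, adjusted p = 0.0137). MED25, whose activator-binding domain is the target of the viral activator VP16, read 5.24 and 5.00, against 4.67 and 4.54 in DMSO (0.52 ± 0.18, adjusted p = 0.0383). After centring MED25 read 0.28 and did not pass (adjusted p = 0.249). MED24 was lost without the 15 h array (0.60, adjusted p = 0.0636) or the 20 h CPT array (0.65, 0.0518), and after centring (0.38, 0.096). MED25 passed in 3 of 14 alternatives and was lost without either late array (0.40 with adjusted p = 0.191 and 0.64 with 0.0599), either DMSO array (0.58 with 0.0782 and 0.46 with 0.107), or the 1 or 2 h array (0.52 each, 0.0568 and 0.0529). MED15, the subunit bound by the sterol regulator SREBP, differed by −0.14 (95% interval −0.56 to 0.28), MED16 by 0.44 (0.02 to 0.87), MED23 by −0.04 (−0.47 to 0.39) and MED29 by 0.27 (−0.14 to 0.69), and none of these passed. Leaving out DMSO at 20 h brought MED16 past the threshold (0.60, adjusted p = 0.0412).

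**Figure D3:**
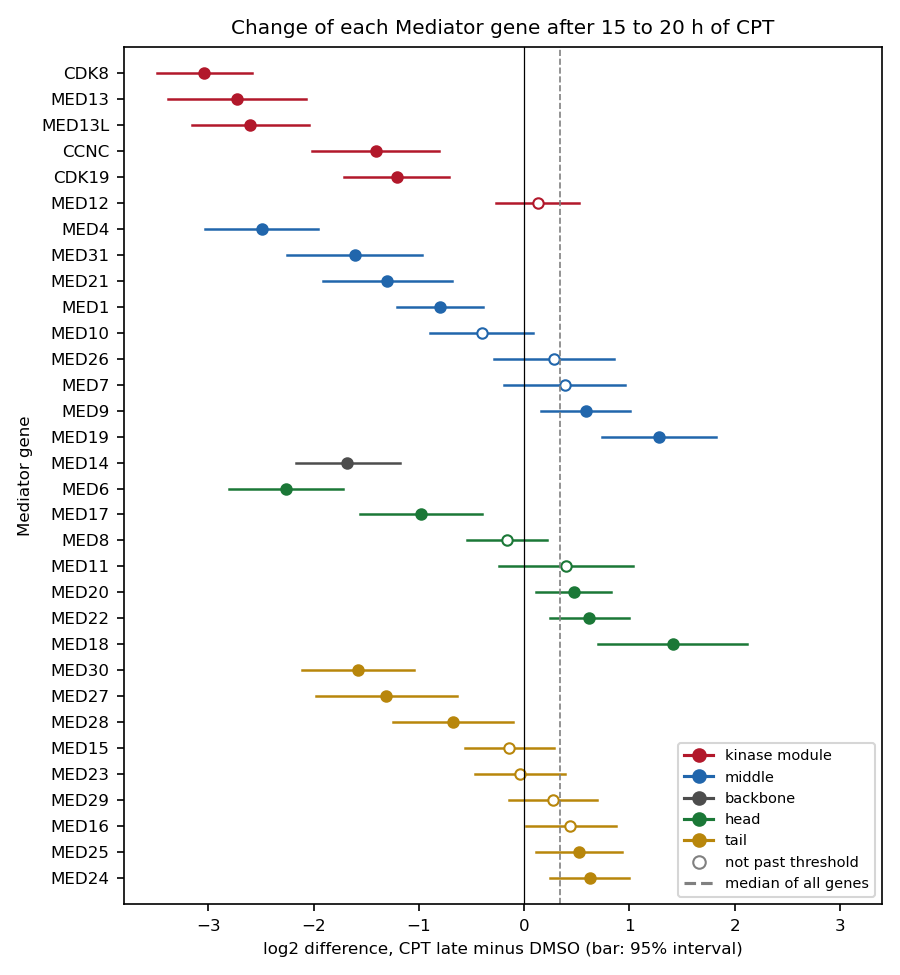
Log2 difference between CPT late (n = 2) and DMSO (n = 2) for each Mediator gene, with its 95% interval as a bar and filled points for genes past the adjusted threshold of 0.05. CDK8 is lowest at −3.04 and MED18 highest at 1.41, and the dashed line marks the median of all genes, 0.34.

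Of the 15 lower members, 9 passed in every one of the alternatives tried (CDK8, MED13, MED13L, CCNC, MED4, MED6, MED14, MED27 and MED1). Of the 7 higher members 2 did, MED18 and MED19. For members with a lost call the adjusted p over the alternatives ran from 0.000714 to 0.0589 for CDK19, from 0.000238 to 0.368 for MED31, from 0.000109 to 0.0767 for MED21, from 0.000452 to 0.0796 for MED30, from 0.00301 to 0.0836 for MED17 and from 0.00981 to 0.354 for MED28. Among the increases it ran from 0.0184 to 0.224 for MED20, from 0.00722 to 0.983 for MED22, from 0.00135 to 0.211 for MED9, from 0.00474 to 0.096 for MED24 and from 0.0241 to 0.401 for MED25. The higher members numbered 2 when either late array was left out and 4 when DMSO at 4 h was left out. Markers of cell types this line should lack were read on the same late arrays, where 33.5% of all genes were higher and the median of all genes was 0.34. All 10 leukocyte markers had a value, 5 of the 10 were higher and the median difference was 0.53, while their summed linear level was 251 to 261 in CPT late and 168 to 171 in DMSO. Of 10 endothelial markers 7 were higher (median 0.52, sums of 195 to 217 in CPT late and 130 to 142 in DMSO), and of 10 fibroblast markers 5 (median 0.54, sums of 193 to 236 in CPT late and 140 to 162 in DMSO). The array lists no marker at 0. PTPRC, which defines leukocytes, averaged 4.09 ± 0.28 in CPT late and 3.78 ± 0.18 in DMSO. Its difference of 0.32 was the smallest of the leukocyte list. The largest was 1.42 for CD14, with 4.84 ± 0.24 in CPT late and 3.42 ± 0.34 in DMSO (adjusted p = 0.0021). Epithelial markers had a median of −0.01, with 4 higher and 1 lower of 10. The part of these marker differences in the small increases of MED9, MED20, MED22, MED24 and MED25 was not tested. In DMSO these members averaged from 3.79 (MED20) to 4.61 (MED25), within the 3.42 (CD14) to 4.75 (CD3E) of the leukocyte markers.

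Within the first 4 h of CPT no Mediator gene passed. With limma 0 members were lower and 0 higher in CPT early against DMSO, on a background of 0.0611% and 0.0222% of genes, and 0 of 32 had an unadjusted p under 0.05, against 7.26% of all genes. The median difference was 0.02, as it was for all genes (0.02), and members ranged from −0.43 for MED10 to 0.44 for MED19. The early and DMSO arrays did not overlap for 2 lower and 5 higher members, against a background of 9.2% and 12.6% of genes. CDK8 read 5.72, 5.43 and 5.55 at 1, 2 and 4 h of CPT, against 5.56 and 5.31 in DMSO. MED13 read 6.65, 6.65 and 6.09, against 6.95 and 6.44 in DMSO, and MED13L 6.57, 6.25 and 5.91, against 6.46 and 6.15 in DMSO, so that the 4 h array of both lay below the DMSO arrays. MED17 read 6.0, 5.68 and 5.33 at 1, 2 and 4 h, against 6.20 and 5.94 in DMSO, a difference of −0.40 that did not pass (adjusted p = 0.789). MED19 read 5.54, 4.85 and 5.37, all above the 4.84 and 4.80 of the DMSO arrays, and its difference of 0.44 did not pass (adjusted p = 0.725).

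The late arrays also differed from the early ones. In CPT late against CPT early 14 members were lower and 5 higher, on a background of 18.3% and 36.3% of genes, and the median difference was −0.09 for members and 0.33 for all genes. CDK8 averaged 2.39 ± 0.27 in CPT late (SD, n = 2) and 5.57 ± 0.15 in CPT early (SD, n = 3), a difference of −3.17 (adjusted p = 1.24e-05). The kinase module had a median of −2.06, with 5 lower, and MED12 differed by 0.05. MED17 was the member that was lower against DMSO but not against CPT early (−0.58, adjusted p = 0.0594). The arrays of CPT late and CPT early did not overlap for 15 lower and 9 higher members, against a background of 23% and 51.5% of genes. This comparison and the one with DMSO rest on the same late arrays.

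With time held equal, 1 array stood on each side and no test was possible. At 20 h, 12 of the 32 members were lower by more than 2-fold on the CPT array than on the DMSO array and 2 were higher, on a background of 11.2% and 6.62% of genes. The differences ran from −3.10 for CDK8 to 1.38 for MED19, with a median of −0.28 for members and 0.23 for all genes. At 4 h, 0 members were past 2-fold in either direction, on a background of 1.7% lower and 1.45% higher. The widest 4 h differences were −0.87 for MED13 and for MED17 and 0.88 for MED7. Between the DMSO arrays 0 members were past 2-fold, on a background of 0.611% lower and 1.13% higher, and the range of −0.85 (CCNC) to 0.58 (CDK19) lay within that at 4 h of CPT. Between the late CPT arrays 1 member was lower and 0 higher at 20 h than at 15 h, on a background of 0.672% and 0.522%.

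The probe sets of a member did not all move alike. Of the 63 kept probe sets of CDK8, 95.2% were lower in CPT late than in DMSO, with quartiles of −3.66 and −2.06. The same share was 96% of 173 for MED13L, 93.6% of 171 for MED13, 93.5% of 46 for MED6 and 93.3% of 60 for CCNC. In MED31, by contrast, 63.6% of 11 were lower. All 15 kept probe sets of MED18 and all 7 of MED9 were higher, since 0% of either were below 0. MED8, whose gene value differed by −0.16, had probe sets from −4.22 to 1.98, and 52.1% of its 73 were lower. MED12 had 43% of 228 below 0, with quartiles of −0.47 and 0.71.

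**Figure D4:**
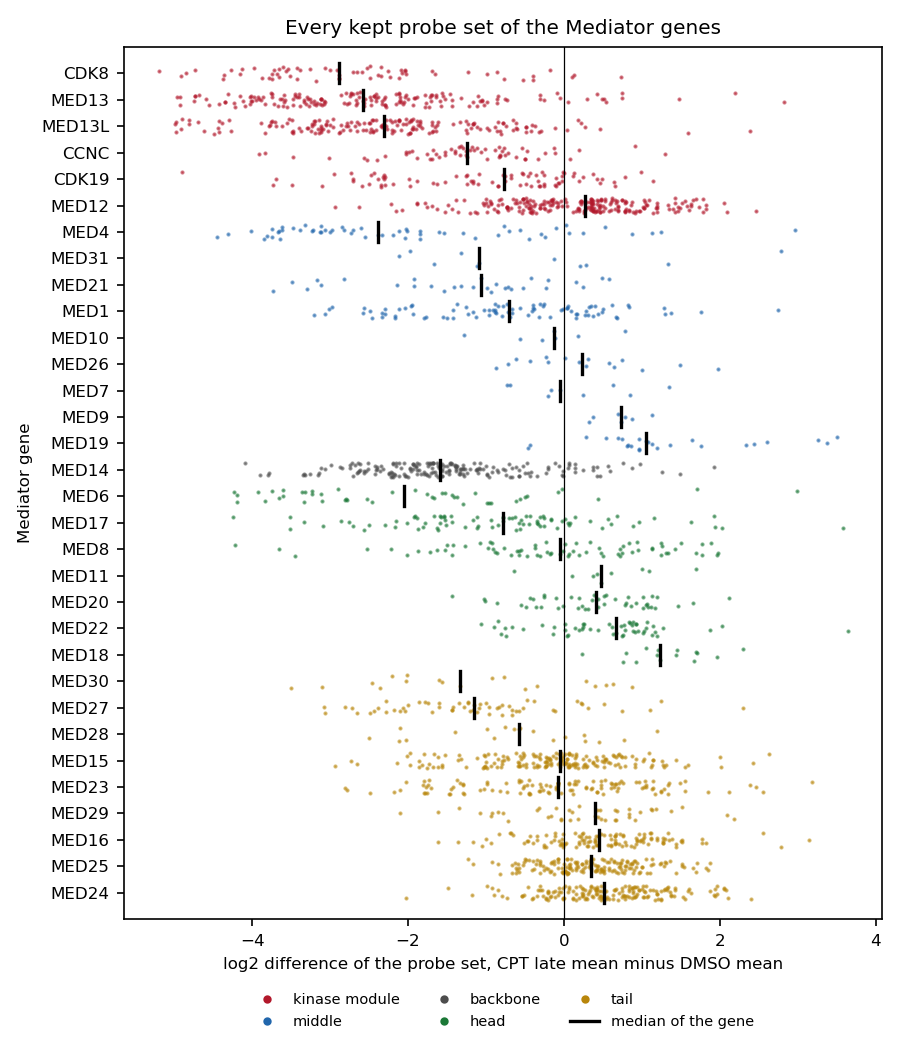
Each point is a kept probe set, placed by its log2 difference between the CPT late and DMSO means, with 1 row per Mediator gene and a black bar at the median of the row. Nearly all points of CDK8, MED13 and MED13L lie left of 0, those of MED12 and MED15 spread on both sides, and those of MED18 and MED9 lie right of 0.

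To ask which probe sets departed from their own gene, each was set against the value of its gene on the same array. Of 2449 member probe sets, 192 were relatively higher in CPT late than in DMSO (7.84%) and 115 relatively lower (4.7%), against a background of 4.35% and 3.03% of all probe sets. The probe sets of a gene share its median and can overlap in sequence, so they are not independent. These counts depend on single arrays: without the 4 h DMSO array they were 56 and 27, without the 20 h CPT array 95 and 56, and without the 20 h DMSO array the lower ones were 57. A relatively higher probe set in a gene that fell can be one that fell less: of the 192, the probe set's own value rose in 125 and fell in 67. All 115 relatively lower ones fell themselves, by a median of −3.66. By share of probe sets past the threshold, the leading members were MED4 (30.5% of 59), MED13 (29.8% of 171), MED31 (27.3% of 11), MED13L (26.6% of 173) and MED6 (23.9% of 46), all genes that fell. MED12 had 4.82% of 228, MED24 1.16% of 172 and MED25 0% of 168.

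Of the 10 probe sets with the largest relative change, 9 were relatively higher and belonged to genes that fell. A probe set that is dim elsewhere can be kept through high late arrays alone. Such were 9969.005.1-D_at, 29079.000.2-Z_at, 9440.000.10-Z_at and 23389.029.1-E_at, which average below 2.95 over the DMSO and CPT early arrays. For these the filter selects for a late rise, so their differences are given as values, not as tests. In MED13 the probe set 9969.005.1-D_at read 5.61 and 6.17 at 15 and 20 h of CPT, against 3.04 and 3.08 in DMSO. Its own value rose by 2.83 while the gene fell, which gave a relative difference of 5.56 ± 0.54 (SE). It read 2.44, 2.94 and 3.15 at 1, 2 and 4 h, so only the late arrays were high. Another MED13 probe set, 9969.002.1-D_at, read 4.10 and 4.68 in CPT late, against 2.95 and 2.86 in DMSO (relative difference 4.21, adjusted p = 0.000315). The MED13L probe set 23389.006.1-B_at read 5.27 and 5.57 in CPT late, against 2.55 and 3.52 in DMSO, and stood at 4.99, 4.80 and 4.31 already at 1, 2 and 4 h. Its relative difference was 4.98 in CPT late (adjusted p = 8.95e-05) and 1.73 in CPT early, which did not pass (adjusted p = 0.535).

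In MED4 the probe set 29079.000.2-Z_at read 5.05 and 5.95 at 15 and 20 h of CPT, against 2.93 and 2.15 in DMSO (relative difference 5.45). In MED31 the probe set 51003.000.1-Y_at read 4.52 and 6.65 in CPT late, against 2.83 and 2.77 in DMSO, and in MED17 the probe set 9440.000.10-Z_at read 4.29 and 6.32 in CPT late, against 1.61 and 1.83 in DMSO. The remaining ones that were relatively higher were 10001.000.1-Y_at of MED6 (5.24), 9969.000.5-Y_at of MED13 (4.92) and 23389.029.1-E_at of MED13L (4.19). The late arrays of these probe sets are apart from the DMSO arrays in every case, but some also differ between 15 and 20 h, such as 10001.000.1-Y_at, at 3.41 and 5.97. The 1 relatively lower probe set, 112950.017.1-D_at of MED8, read 3.80 and 1.79 in CPT late, against 7.52 and 6.52 in DMSO, while the MED8 gene value stayed at 4.34 on both late arrays (relative difference −4.07 ± 0.62 SE, adjusted p = 0.00125). Among member probe sets, those with the letters Y and Z had the largest shares relatively higher in CPT late, 30% of 90 and 24.7% of 77, and 0% of either were relatively lower. Over the whole array these letters also had the largest shares relatively higher, 12.8% of 36446 Y and 10.5% of 45375 Z probe sets, with 0.815% and 0.626% relatively lower. Probe sets kept through high late arrays alone can be part of these shares, and their number was not counted. X probe sets had 4.46% of 224 relatively higher and 9.82% relatively lower, and E probe sets 13.3% of 166 higher and 4.82% lower, against 2.96% and 5.25% of all X and 7.05% and 2.3% of all E probe sets. What the letters stand for is not stated in the labels.

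In CPT early 0 member probe sets were relatively lower and 0 relatively higher by limma, on a background of 0.0106% and 0.0139%. At an unadjusted p under 0.05 there were 162 of 2449 (6.61%), against 5.67% of all probe sets.

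Ranked by gene length, the 16 longest members had 9 lower and 2 higher in CPT late with a median of −0.89. The 16 shortest had 6 lower and 5 higher with a median of 0.06. Among all genes, of any length, 17.5% were lower and 33.5% higher. Over the 32 members the Spearman correlation of the late difference with gene length was −0.47, and over all 18017 genes −0.39, with all genes on the same arrays. The corresponding values for the mean level of a gene were −0.40 and −0.27, so length and level both went with the change. The longest member, MED13L, and the next in rank, MED27, CDK19, CDK8, MED13 and MED14, were all lower, while MED11, MED7, MED8 and MED10, the shortest 4, did not pass. MED4, MED6 and MED31, at ranks 14, 13 and 6 of 32, fell as well, and MED15, MED23 and MED26, at ranks 26, 25 and 24, did not pass. In the kinase module CDK8, CDK19, MED13 and MED13L stood at ranks 29, 30, 28 and 32, and CCNC and MED12 at 20 and 18. The parts of module and of length in the change of these genes were not tested. In CPT early the correlation with length was −0.02 over members and −0.22 over all genes.

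**Figure D5:**
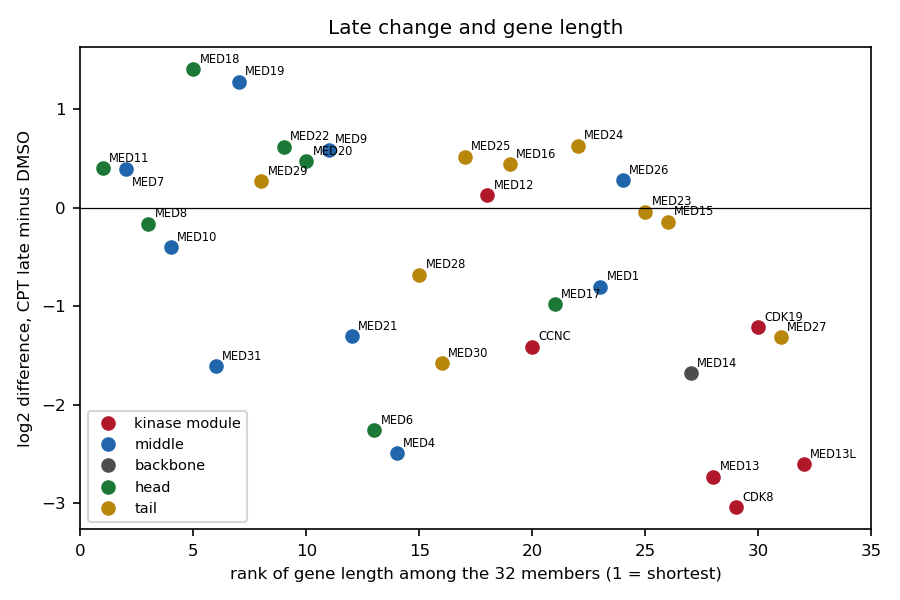
Log2 difference between CPT late and DMSO for each Mediator gene, set against the rank of its length among the 32 members (1 is the shortest), coloured by module. The 6 longest genes all lie below −1, and MED4 and MED6 lie as low near the middle of the ranks.

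The partners of Mediator at the promoter were read the same way. General transcription factors assemble with the polymerase at the start site. Of their 31 genes 15 were lower in CPT late and 4 higher (48.4% and 12.9%), against 17.5% and 33.5% of all genes. Their median was −0.48. The largest changes were decreases of GTF2E2, of the factor TFIIE (−2.60 ± 0.26 SE, adjusted p = 7.72e-05), of MNAT1 (−2.14) and CDK7 (−2.12), which form part of the kinase of TFIIH, and of GTF2F2, of TFIIF (−2.13). CDK7 averaged 3.67 ± 0.25 in CPT late and 5.78 ± 0.51 in DMSO (SD, n = 2 each). The 12 genes of RNA polymerase II subunits had 2 lower and 5 higher (16.7% and 41.7%), near the 17.5% and 33.5% of all genes. Their median was 0.38, against 0.34 for all genes. POLR2B, the second largest subunit, fell, with 4.84 ± 0.03 in CPT late and 7.03 ± 0.16 in DMSO (−2.19 ± 0.22, adjusted p = 7.77e-05). The next largest called changes among the polymerase subunits were increases, of POLR2K (0.94), POLR2E (0.93) and POLR2L (0.93). In CPT early 0 genes of either list passed, on a background of 0.0611% lower and 0.0222% higher, with list medians of 0.12 and 0.27.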

How the data were processed

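The deposited table holds 1 log2 value per probe set and array, normalised between arrays by the authors. The log2 scale is inferred from their range, 0.957 to 13.6. Per the submitters' processing notes RMA, Partek 6.08 and R 2.11.1 were used, with no role or order given. For background correction, summarisation and the genome build, the sources at hand give no statement.

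Probe sets were assigned by the number that opens their name, read as an NCBI gene identifier and matched to the RefSeq gene table of GRCh38.p14. Of 20649 identifiers 19570 were found. The platform annotation listed the current symbol for 24 members, a different one for 7 (such as OPA1 for MED12 and TIG1 for MED15) and none for 1 (MED6). For all of these the gene identifier was followed, not the symbol. Kept rows had a mean over the 7 arrays above 2.95, the median of all rows. Gene values are medians of at least 3 kept rows. Relative values are a probe set's log2 value minus its gene's value, for genes with at least 5.

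Differences were tested with limma 3.58.1 under R 4.3.3, using lmFit and eBayes with an intensity trend, 1 mean per group, 4 residual degrees of freedom and Benjamini-Hochberg adjustment over all genes or all probe sets, at a threshold of 0.05. Its steps were tested on simulated data. Precision is limited by having only 7 arrays. The R package data.table (1.17.8), Python 3.11.15 and matplotlib 3.10.9 made tables and figures. Lengths of genes serve for ranks only.

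Full values were given for the 12 members with the largest called late change, for called increases, for paralog pairs and for the 10 probe sets of largest relative change; the partner lists give up to 4 genes each. Alternatives were the mean, no filter, a filter at the 0.75 quantile (4.60), quantile re-normalization, centring each array on its gene median, eBayes without the trend and each array left out. Gene values over only the probe sets lettered B, F and T were added after seeing the data. The members, lists and tests were chosen with earlier results of these data known.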

Additional observations from a re-analysis of the deposited data

Results flagged for a closer look

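For 19 members the difference from DMSO was itself different between late and early CPT, by the limma test of CPT late against CPT early with adjustment over all genes. Lower were CDK8 (log2 difference −3.17), MED13L (−2.53), MED13 (−2.49), MED6 (−2.42), MED4 (−2.28), MED14 (−1.72), MED30 (−1.69), CCNC (−1.63), MED27 (−1.49), CDK19 (−1.41), MED31 (−1.39), MED21 (−1.27), MED28 (−0.87) and MED1 (−0.68). Higher were MED18 (1.16), MED19 (0.85), MED9 (0.79), MED22 (0.57) and MED16 (0.45). The adjusted p ran from 1.24e-05 for CDK8 to 0.0471 for MED16. Of the lower ones 9 passed in every alternative tried, and of the higher ones 0 did. Without the 15 h array MED18 (0.90, adjusted p = 0.0763), MED22 (0.59, 0.0567), MED16 (0.45, 0.15) and MED28 (−0.50, 0.121) did not pass. With the late array at 20 h left out, MED1 (−0.63, 0.0611), MED19 (0.77, 0.0669), MED9 (0.67, 0.0515), MED22 (0.55, 0.069) and MED16 (0.46, 0.143) did not, nor did MED16 without the 1 h (0.42, 0.113) or 2 h array (0.41, 0.121). MED27 passed but read −0.95 with the late array at 20 h left out (adjusted p = 0.0191). MED17 passed as lower without the 4 h CPT array (−0.75, adjusted p = 0.0305). Other settings also ended calls. With no filter MED31 (0.04, adjusted p = 0.937), MED22 (0.09, 0.65) and MED16 (0.44, 0.109) did not pass. With the stricter filter CDK19 (−0.52, 0.0772) and MED16 (0.33, 0.148) did not. After centring MED22 (0.34, 0.0958), MED19 (0.62, 0.0579) and MED16 (0.22, 0.271) did not. Over the probe sets lettered B, F and T, MED21 (−0.35, 0.217), MED28 (−0.71, 0.0551), MED22 (0.05, 0.82) and MED16 (0.31, 0.216) did not.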

How the results depend on the processing

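No paired analysis was possible because the labels give no replicate numbers and the groups share no more than the times 4 and 20 h, which were compared as values. In CPT late against DMSO the 15 lower members numbered 13 to 15 when an array was left out, and the 7 higher 2 to 7. The higher members were 3 with no filter and 2 after centring. The member median of −0.28 ran from −0.44 to −0.21 with an array left out and was −0.18 with means, −0.19 with no filter, −0.38 with the stricter filter and −0.52 after centring. In CPT late against CPT early 13 to 15 were lower and 1 to 5 higher with an array left out; 3 were higher with no filter or from B, F and T probe sets and 2 after centring. The median of −0.09 ran from −0.13 to −0.03, and was −0.19 with means and from B, F and T probe sets, −0.23 with no filter, −0.41 with the stricter filter and −0.32 after centring. In CPT early against DMSO 0 members passed under any alternative, and the median was 0.13 with no filter and from 0 to 0.04 with an array left out. Relatively lower probe sets (115) were 178 with means, 195 with no filter, 66 without the trend and 27 to 125 with an array left out. Relatively higher ones (192) were 676 with no filter, 108 without the trend and 56 to 185 with an array left out. In CPT early 1 was relatively higher with means, with no filter, with the stricter filter and without the 1 h array. Reversed were MED31 with no filter, 0.48 in CPT late against DMSO and 0.04 against CPT early, and MED22 from B, F and T probe sets, −0.07. The cause was not tested. Over all members, comparisons and alternatives, 1262 values stayed on their side of the threshold with no called value changing sign (values short of it in both settings could change sign), 65 fell short of it, 11 came to pass it and 3 reversed.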
